A study of Mus musculus with 21 samples.

Results

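The 10 genes described here make, recycle and break down glutathione, or import the cystine from which it is made: *Gclc*, *Gclm*, *Gss*, *Gsr*, *Ggt1*, *Ggct*, *Chac1*, *Chac2*, *Oplah* and *Slc7a11*. They were found by gene symbol, through the Ensembl identifiers of GENCODE M21 (GRCm38), and all 10 were among the 46078 rows of the count table. RNA was sequenced from the livers of 21 mice of 2 genotypes on 3 diets. Mice labelled cse (KO below) lack *Cse*, the gene annotated as *Cth*, and cannot turn cystathionine into cysteine; the comparison animals are labelled WT, although the study's text calls its comparison mice *Cse*+/-. All were males on calorie restriction per the study's methods, at least 9 weeks old when the diets began, and the *Cse* line was kept on a 129/C57BL/6 background. The diets were a defined amino acid diet (CTR) and versions of it that lacked cysteine (noCys) or tryptophan (noTrp), in which the other amino acids were raised in proportion. On CTR there were 3 WT and 4 KO mice, on noCys 4 WT and 3 KO (KO replicates 1, 3 and 4), and on noTrp 2 WT and 5 KO.

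Glutathione is a tripeptide of glutamate, cysteine and glycine and the main soluble thiol of the cell, and liver is a large producer of it. Glutamate-cysteine ligase joins the first pair of amino acids, glutathione synthetase adds glycine, and glutathione reductase returns the oxidized form to the reduced one. Breakdown runs outside the cell through γ-glutamyltransferase and in the cytosol through the ChaC enzymes, which release 5-oxoproline and cysteinylglycine, so that breakdown also gives cysteine back. 5-Oxoproline is then opened to glutamate. Several of these genes are known targets of NRF2, which binds antioxidant response elements, or of ATF4, which binds C/EBP-ATF response elements during the integrated stress response.

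Promoter stretches are shown for *Chac1*, *Slc7a11*, *Ggct* and *Gclm*, each of which held the core of one of these elements, and for *Chac2*, which did not and whose mRNA was lower in KO noCys. RefSeq promoter sequences (GRCm38.p6) were at hand for 7 of the 10 genes. *Gclc*, *Gsr* and *Oplah* were not in that table. The lines run 5′ to 3′ on the gene's own strand from 250 bases upstream of the RefSeq start, and end before the gene's annotated span. They are chr2:119350992-119351228 (plus strand) for *Chac1*, chr3:50443615-50443863 (minus) for *Slc7a11*, chr6:54992951-54993117 (minus) for *Ggct*, chr3:122245307-122245556 (plus) for *Gclm* and chr11:30986366-30986615 (minus) for *Chac2*. Capitals mark exact matches, on either strand, to TGACNNNGC (antioxidant response element core) or TGATGNAA (C/EBP-ATF response element core).
Chac1: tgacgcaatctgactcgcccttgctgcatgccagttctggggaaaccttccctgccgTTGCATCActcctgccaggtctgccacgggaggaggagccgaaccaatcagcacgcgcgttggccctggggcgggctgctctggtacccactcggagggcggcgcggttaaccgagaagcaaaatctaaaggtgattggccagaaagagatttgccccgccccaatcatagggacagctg
Slc7a11: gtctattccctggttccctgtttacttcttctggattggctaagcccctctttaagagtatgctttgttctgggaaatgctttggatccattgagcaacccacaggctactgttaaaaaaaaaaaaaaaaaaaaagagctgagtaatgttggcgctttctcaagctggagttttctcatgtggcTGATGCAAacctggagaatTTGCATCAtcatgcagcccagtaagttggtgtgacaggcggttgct
Ggct: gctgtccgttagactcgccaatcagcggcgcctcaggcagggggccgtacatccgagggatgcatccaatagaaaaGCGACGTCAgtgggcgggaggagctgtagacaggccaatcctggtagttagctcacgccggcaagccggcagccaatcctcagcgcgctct
Gclm: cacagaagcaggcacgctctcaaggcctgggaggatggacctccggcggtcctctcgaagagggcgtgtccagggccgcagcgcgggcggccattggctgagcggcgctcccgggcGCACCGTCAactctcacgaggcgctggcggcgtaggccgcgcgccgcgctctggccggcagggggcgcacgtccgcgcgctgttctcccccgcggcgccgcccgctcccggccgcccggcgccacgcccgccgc
Chac2: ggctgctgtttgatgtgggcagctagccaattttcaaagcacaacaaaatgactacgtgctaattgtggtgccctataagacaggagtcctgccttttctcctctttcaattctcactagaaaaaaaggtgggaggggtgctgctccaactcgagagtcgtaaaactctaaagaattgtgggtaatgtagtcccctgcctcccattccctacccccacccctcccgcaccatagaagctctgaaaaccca

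The C/EBP-ATF core lay at -193 to -186 from the start in *Chac1* and at -66 to -59 and -47 to -40 in *Slc7a11*. Of 32851 promoters in the table, 3.45% held it in the 250 bases before the start. The antioxidant core, held by 10.2% of promoters, lay at -134 to -126 in *Gclm* and at -174 to -166 in *Ggct*. *Gss* held neither, and 2 of the 4 *Ggt1* promoters listed held the antioxidant core. The motifs do not overlap one another in these stretches, and a match describes letters only.

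Levels per library are CPM, read counts relative to a TMM-scaled library total. Total counts ran from 8889951 to 27230852 per library. *Cth*, the targeted gene, was at 108 to 452 CPM in the WT libraries and below all of these in every KO library, down to 6.34. The 6 hepatocyte markers summed to 48509 to 113181 CPM, so the tissue matched its label. Differences are log2 fold changes from edgeR's quasi-likelihood test on all 21 libraries, with standard errors (SE). Adjusted p is Benjamini-Hochberg over the 14370 genes that passed a filter on low counts, and a gene is called under 0.05. *Ggt1* and *Slc7a11* did not pass that filter, so 8 of the 10 genes were tested.

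Per kilobase of exon, the mean level over the 21 libraries was highest for *Gclc* (33.6 CPM per kb), followed by *Gclm* (26.0), *Gsr* (24.2), *Oplah* (23.9), *Chac2* (19.3), *Gss* (13.2), *Chac1* (6.99) and *Ggct* (1.36). Each gene overlapped the next in its range over libraries, with *Ggct* reaching 2.14 and *Chac1* going down to 1.75. *Ggt1*, the γ-glutamyltransferase of the cell surface, averaged 0.0284 CPM per kb and *Slc7a11*, the cystine importer xCT, 0.00708. On this scale *Gclc*, *Gclm* and *Gsr* had the highest mean levels, *Gss* lay below the breakdown genes *Oplah* and *Chac2*, and *Ggt1* and *Slc7a11* were the lowest. The length was that of all annotated exons of a gene merged (5915 bases for *Gss*, 1315 for *Chac2*), and the order depends on it. In CPM, *Gss* (64.2 to 97.4) was above *Chac2* (16.3 to 33.1).

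**Figure D1:**
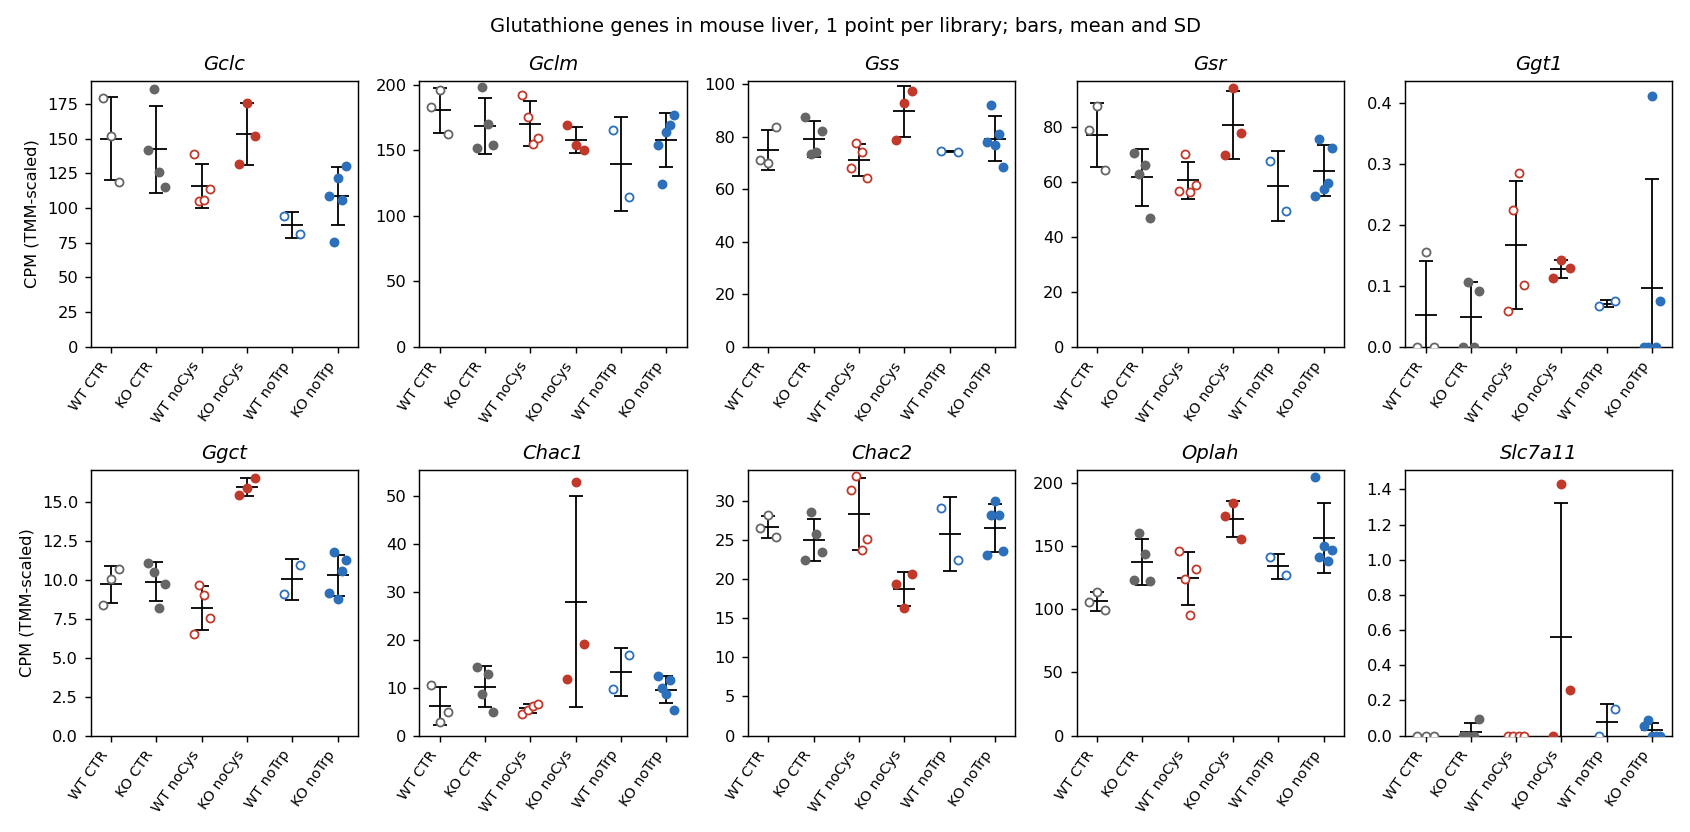
CPM of the 10 genes (y axis, linear from 0) in each of the 6 groups (x axis), with 1 point per library, open for WT and filled for KO, and bars for the mean and SD. The 3 KO noCys libraries lie above all others for *Ggct* and below all others for *Chac2*, and 1 of them stands far above the rest for *Chac1* and *Slc7a11*.

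The central question was what happens when cysteine can be neither made nor eaten, which KO noCys against WT noCys addresses. 5 of the 8 tested genes were called, against a background of 28.2% of all genes tested. *Chac1*, *Ggct*, *Oplah* and *Gss* rose and *Chac2* fell. 4 of these 5 act in breakdown, as do 4 of the 8 tested, and 1 acts in synthesis. The median log2 fold change of the 8 was 0.41, beside -0.02 over all genes. 5 of the 8 had groups that did not overlap, against 37.6% of all genes.

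Cell type markers also differed between these groups. The 6 hepatocyte markers summed to 48509 to 78594 CPM in KO noCys, below the 101132 to 113181 of WT noCys. Of them, 2 were called lower, *Alb* (-1.15) and *Ttr* (-1.03). The others, *Apoa1* (-0.54), *Tat* (-0.34), *Cps1* (0.03) and *Cyp2e1* (0.09), were not called, so the lower sum was not shared by all of them. The summed level of 7 cholangiocyte markers was 25.8 to 31.1 against 46.7 to 68.7 CPM (2 of 6 tested called lower), of 5 erythroid markers 128 to 158 against 183 to 374 (3 called lower), of 8 Kupffer and leukocyte markers 100 to 121 against 114 to 193 (1 called lower), and of 7 stellate and endothelial markers 238 to 268 against 271 to 374 (2 called lower). Periportal markers summed to 7717 to 10880 against 11963 to 12735 CPM (2 of 6 called lower), and pericentral ones to 3405 to 3523 against 2757 to 3382 (1 higher and 1 lower). Their part in the glutathione gene differences was not tested, and in bulk RNA fewer cells of a type and less RNA per cell cannot be told apart. The 6 exocrine pancreas markers summed to 13.4 to 17.3 CPM in KO noCys and 12.5 to 17.1 in WT noCys, with 1 of them, *Cela1*, passing the low-count filter (not called) and *Cpa1* and *Pnlip* at 0 in every library.

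Of the 3 synthesis genes, *Gss* was called and *Gclc* and *Gclm* were not. *Gclc*, the catalytic subunit of glutamate-cysteine ligase (ENSMUSG00000032350, chromosome 9, 77754535 to 77794485), was at 139, 105, 106 and 114 CPM in WT noCys, compared with 132, 176 and 152 in KO noCys. These groups overlapped by 1 library of each, and the difference of 0.40 (SE 0.18) was not called (adjusted p = 0.102). It was called, in the same direction, by limma-voom (adjusted p = 0.0422), with libraries scaled by their totals alone (0.0224) and in a fit of the compared groups alone (0.04), but not by DESeq2 (0.0901). *Gclm*, the modifier subunit that raises the enzyme's affinity for glutamate (ENSMUSG00000028124, chromosome 3, 122245557 to 122270732), was at 192, 175, 155 and 159 CPM in WT noCys, compared with 169, 154 and 150 in KO noCys. The 2 groups lay among each other, with a difference of -0.11 (SE 0.14, adjusted p = 0.567) that turned to 0.10 when libraries were scaled by their totals alone. *Gclm* was called in 0 of the 9 comparisons made with edgeR, and was at unadjusted p under 0.05 in 1 of them (WT noTrp against WT CTR). Its exons share 540 bases with *Gm17494* and *Gm6061*, which held 230 and 0 counts in all beside its own 48916.

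*Gss*, glutathione synthetase (ENSMUSG00000027610, chromosome 2, 155563181 to 155592810), was at 68.2, 77.5, 74.3 and 64.2 CPM in WT noCys, compared with 78.6, 92.8 and 97.4 in KO noCys. Every KO noCys library was above every WT noCys library, and *Gss* rose by 0.34 (SE 0.11, adjusted p = 0.0234). The call held in 3 of 7 fits with a library of these groups left out, and adjusted p rose to 0.0932 without KO noCys replicate 3 and to 0.113 without replicate 4. The 14 merged exons of *Gss* share 1102 bases with genes on the other strand, chiefly *Acss2*, an acetyl-CoA synthetase. *Acss2* moved the other way (-0.73, SE 0.16, adjusted p = 0.00183); the strand setting of the counting was not given in the sources used here.

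*Gclm* and *Gclc* encode subunits of 1 enzyme. Their ratio within a library does not depend on scaling, since both are divided by the same total. The log2 ratio of *Gclm* to *Gclc* CPM was 0.47, 0.74, 0.55 and 0.48 in WT noCys, against 0.36, -0.19 and -0.02 in KO noCys replicates 1, 3 and 4. The KO noCys libraries were lower throughout, with means of 0.05 ± 0.28 (SD, n = 3) and 0.56 ± 0.13 (n = 4). The difference of -0.51 gave an exact two-sided permutation p of 0.0571, the smallest that 3 against 4 libraries allow. Among 8 such comparisons, KO noTrp was above KO CTR by 0.29 (exact permutation p = 0.0159) and KO noCys differed from KO noTrp by -0.50 (exact permutation p = 0.0357). WT noCys was above WT CTR by 0.28 without overlap (exact permutation p = 0.0571, the smallest possible), whereas KO noCys overlapped KO CTR, with a difference of -0.21 (exact permutation p = 0.229). Adjusted over the 8, none was under 0.114.

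**Figure D2:**
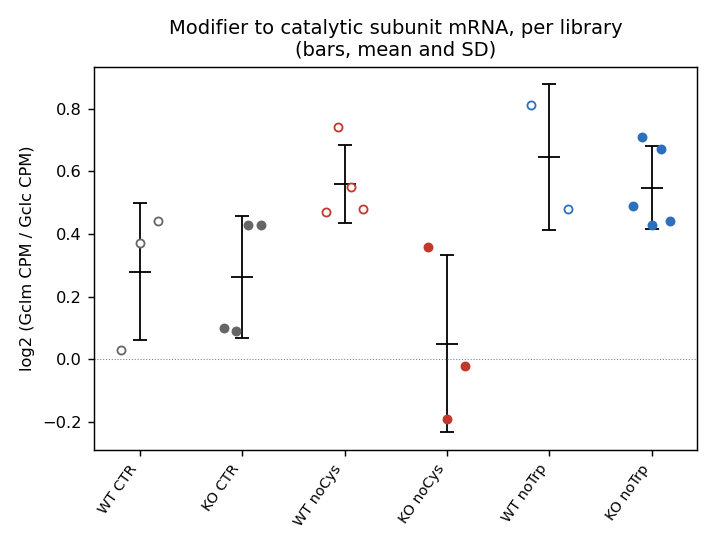
Log2 ratio of *Gclm* to *Gclc* CPM (y axis) by group (x axis), 1 point per library, with bars for the mean and SD and a dotted line at equal CPM. KO noCys averages 0.05, WT CTR 0.28 and KO CTR 0.26, while WT noCys and the noTrp groups average 0.55 to 0.64.

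Recycling rests on *Gsr*, glutathione reductase (ENSMUSG00000031584, chromosome 8, 33652523 to 33698163). It was at 56.8, 70.3, 56.3 and 58.8 CPM in WT noCys, compared with 69.8, 94.3 and 77.9 in KO noCys, with WT noCys replicate 2 just above the lowest KO noCys library. The difference of 0.42 (SE 0.16) missed the threshold at adjusted p = 0.0511, and passed it with DESeq2 (0.0422), with limma-voom (0.0233), with library totals alone (0.00783) and in a fit of the compared groups alone (0.0261). On the control diet *Gsr* was at 79.0, 87.8 and 64.5 CPM in WT and 70.7, 63.0, 66.0 and 46.9 in KO. Removal of cysteine thus went with values of -0.35 (SE 0.16, adjusted p = 0.321) in WT and 0.39 (SE 0.16, adjusted p = 0.0841) in KO, neither called, although limma-voom (0.0288) and library totals alone (0.0363) called the latter. The test of the difference between these, the interaction, did call *Gsr* (0.74, SE 0.22, adjusted p = 0.0458). That call was kept in 4 of 14 fits with a library left out, with the highest adjusted p at 0.163 without KO noCys replicate 3, and was lost without the low-count filter (0.0535).

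*Ggct* (ENSMUSG00000002797, chromosome 6, 54982580 to 54992950) encodes γ-glutamylcyclotransferase, which turns γ-glutamyl amino acids into 5-oxoproline. It was at 6.53, 9.69, 9.02 and 7.56 CPM in WT noCys, against 15.5, 15.9 and 16.6 in KO noCys. In the other groups it was at 8.37, 10.1 and 10.7 (WT CTR), 11.1, 10.5, 8.19 and 9.78 (KO CTR), 9.12 and 11.0 (WT noTrp), and 9.18, 11.8, 8.76, 10.6 and 11.3 (KO noTrp). The KO noCys libraries were close to one another and lay above all 18 others, a complete separation that *Ggct* and *Chac2* alone showed among the 8 genes, against 9.26% of all genes.

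*Ggct* rose 1.97-fold in KO noCys against WT noCys (log2 0.98, SE 0.15, adjusted p = 8.05e-05). It also rose against KO CTR by 0.69 (SE 0.15, adjusted p = 0.00235) and against KO noTrp by 0.64 (SE 0.14, adjusted p = 0.00503). These 3 comparisons share the KO noCys libraries. Its interaction was called too, at 0.95 (SE 0.21, adjusted p = 0.0102). All 4 calls held whichever library was left out, with log2 values of 0.87 to 1.06 in the first. Within WT, removal of cysteine gave -0.26 (SE 0.15, adjusted p = 0.47).

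*Chac1* (ENSMUSG00000027313, chromosome 2, 119351229 to 119354381), the ChaC enzyme induced in the integrated stress response, was at 4.49, 5.41, 6.17 and 6.65 CPM in WT noCys, against 11.8, 52.9 and 19.1 in KO noCys. The WT CTR libraries held 10.5, 2.86 and 4.88, and the KO CTR libraries 14.3, 8.71, 12.9 and 4.94. Without tryptophan it was at 9.79 and 16.8 in WT and 12.5, 10.0, 8.58, 11.5 and 5.37 in KO. KO noCys replicate 3 was far above every other library, while replicate 1 lay within the range of the control and noTrp groups.

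*Chac1* rose 4.98-fold against WT noCys (log2 2.32, SE 0.45, adjusted p = 0.000762), and stayed called in all 7 fits with a library left out, with the lowest value of 1.45 without KO noCys replicate 3. Against KO CTR (1.47, SE 0.43, adjusted p = 0.0202) and KO noTrp (1.56, SE 0.41, adjusted p = 0.014) it was also called. Without KO noCys replicate 3 those values were 0.61 (adjusted p = 0.385) and 0.70 (adjusted p = 0.337), and the former call was also lost without KO CTR replicate 4 (1.24, adjusted p = 0.0621) and in a fit of the compared groups alone (1.46, adjusted p = 0.0597). The *Chac1* interaction was 1.54 (SE 0.66, adjusted p = 0.159) and was not called.

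*Chac2* (ENSMUSG00000020309, chromosome 11, 30976707 to 30986350), the slower and constitutive ChaC enzyme, went the other way. It was at 31.4, 33.1, 23.7 and 25.1 CPM in WT noCys, compared with 19.3, 16.3 and 20.6 in KO noCys. KO CTR was at 22.4, 28.5, 25.7 and 23.4, WT CTR at 25.3 to 28.1, and the noTrp libraries of both genotypes at 22.4 to 29.9. All 3 KO noCys libraries were below the other 18. *Chac2* fell by 0.60 on the log2 scale against WT noCys (SE 0.14, adjusted p = 0.00326), with values of -0.68 to -0.50 and a call in all 7 fits with a library left out.

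Against KO CTR *Chac2* fell by 0.42 (SE 0.14, adjusted p = 0.0362) and against KO noTrp by 0.50 (SE 0.13, adjusted p = 0.0155), again relative to shared KO noCys libraries. The former call was lost in 4 of 7 fits with a library left out, with the highest adjusted p at 0.201 without KO noCys replicate 3, and the latter without that library only (0.131). The former was also lost with library totals alone (-0.30, adjusted p = 0.154) and without the low-count filter (0.0514). Per kilobase, the mean level of *Chac1* was 3.47 CPM in WT noCys and 17.1 in KO noCys, and that of *Chac2* was 21.6 and 14.2. In single libraries *Chac2* was the higher of the 2 in all 4 WT noCys libraries and in KO noCys replicates 1 (14.7 against 7.21 CPM per kb) and 4 (15.7 against 11.7). *Chac1* was the higher only in KO noCys replicate 3 (32.3 against 12.4), which alone turned the order of the KO means.

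*Oplah* (ENSMUSG00000022562, chromosome 15, 76296601 to 76328015) encodes 5-oxoprolinase, which recovers glutamate. It was at 146, 124, 95.6 and 132 CPM in WT noCys, compared with 174, 184 and 156 in KO noCys, with no overlap. *Oplah* rose by 0.46 (SE 0.14, adjusted p = 0.0226), and the call held in 4 of 7 fits with a library left out (adjusted p = 0.0736 without WT noCys replicate 3, 0.0512 without KO noCys replicate 1 and 0.103 without replicate 3). On the control diet it was at 106, 114 and 99.1 CPM in WT and 123, 160, 144 and 122 in KO. These groups did not overlap either, yet the 0.37 (SE 0.15) was not called (adjusted p = 0.397), and the interaction was 0.09 (SE 0.21, adjusted p = 0.834). The exons of *Oplah* share 681 bases with *Smpd5* and *Exosc4* on the other strand; *Exosc4* was at 0.23 (SE 0.17, adjusted p = 0.335).

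**Figure D3:**
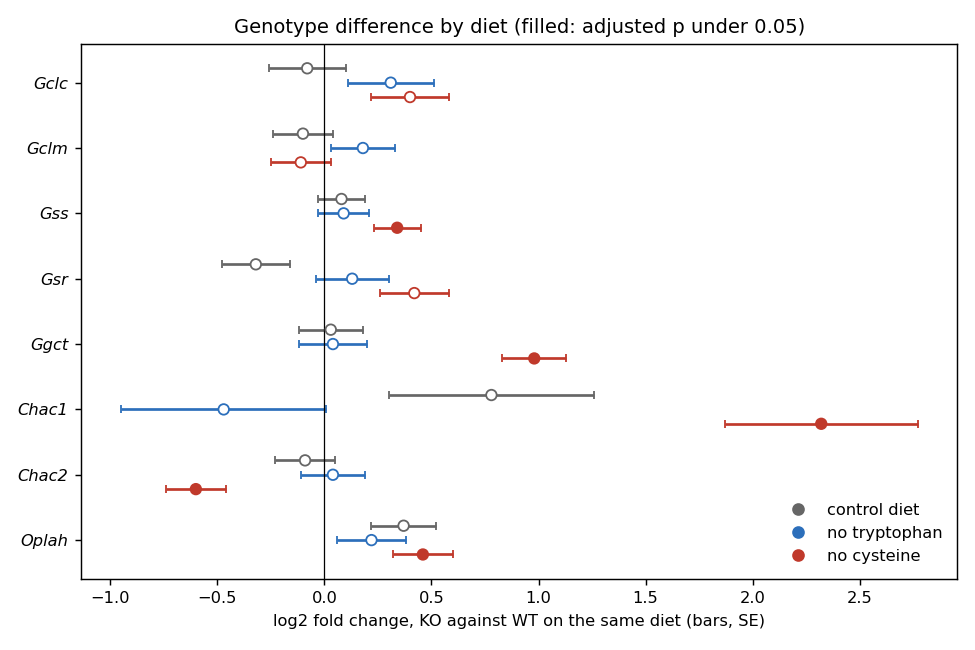
Log2 fold change of KO against WT (x axis, bars for SE) on each diet for the 8 tested genes (y axis), filled where adjusted p is under 0.05. Filled points appear only without cysteine: *Gss*, *Ggct*, *Chac1* and *Oplah* to the right and *Chac2* to the left.

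*Slc7a11* and *Ggt1* were at the edge of detection. *Slc7a11* (ENSMUSG00000027737, chromosome 3, 49892526 to 50443614) had 39 counts in all 21 libraries together. KO noCys held 0, 30 and 4 of them in replicates 1, 3 and 4, and WT noCys held 0 in each library. The other 5 counts were 1 in KO CTR replicate 4, 2 in WT noTrp replicate 2, and 1 each in KO noTrp replicates 1 and 2. Taking 3 counts over the WT noCys group as its floor, the pooled counts of *Slc7a11* were at least 16.5-fold higher in KO noCys. This figure makes no allowance for the spread between mice. Replicate 3 held 30 of the 34 counts, and the same floor gives a ratio of 3.51 from the 4 counts left without it, too few to take as a bound. The floor allows for counting error in WT noCys only, with the KO noCys counts taken as they stand. In an edgeR fit with no filter on low counts it was called against WT noCys (adjusted p = 0.00276), KO CTR (0.0093) and KO noTrp (0.0141), a fit not repeated without replicate 3.

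*Ggt1* (ENSMUSG00000006345, chromosome 10, 75561604 to 75586200) had 30 counts in all and stayed at or under 0.412 CPM. It was at 0.0583 to 0.285 CPM in WT noCys and 0.113 to 0.143 in KO noCys. No difference in it was detectable at this depth, and the unfiltered fit called it nowhere (adjusted p of 0.642 to 1). Defining markers of kidney tubule, where *Ggt1* is abundant, summed to at most 0.697 CPM, with *Umod* at 0 in every library.

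In 4 further comparisons of diet or genotype 0 of the 8 genes were called by edgeR, by DESeq2 or by limma-voom with quality weights. For KO CTR against WT CTR the background of calls was 0.32% of genes, log2 values ran from -0.32 to 0.78, and 1 gene (*Oplah*) had an unadjusted p under 0.05, as did 9.59% of all genes. For KO noTrp against WT noTrp that background was 0.195%, with values of -0.47 to 0.31 and 0 genes at unadjusted p under 0.05 (8.91% of all genes). Removal of cysteine from WT gave values of -0.38 to 0.23, with 1 gene (*Gsr*) at unadjusted p under 0.05 (13.9% of all genes) and 0.661% of all genes called. Removal of tryptophan from KO gave values of -0.39 to 0.19, with 1 such gene (*Gclc*; 16.9% of all genes) and 1.87% of all genes called.

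Removal of tryptophan from WT, with 2 libraries, had 3.19% of all genes called. Of the 8 genes, 0 were called by edgeR or limma-voom and 4 had an unadjusted p under 0.05, as did 18.2% of all genes. *Gclc* was at 94.2 and 81.4 CPM, below the 179, 152 and 119 of WT CTR, a difference of -0.78 (SE 0.22, adjusted p = 0.0622) that DESeq2 called (adjusted p = 0.0173). *Gclm* was at -0.37 (adjusted p = 0.233), *Gsr* at -0.40 (adjusted p = 0.272) and *Chac1* at 1.15 (adjusted p = 0.274). Mitochondrial genes held 3.7% and 3.89% of counts in WT noTrp, against 6.51% to 7.51% in WT CTR. The Kupffer and leukocyte markers summed to 213 to 214 against 94.3 to 157 CPM. The part of either in these differences was not tested.

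Against KO CTR, KO noCys had 3 genes called of 8 (*Ggct*, *Chac1* and *Chac2*, with 20.2% of all genes as background), and against KO noTrp the same 3 genes (13.9%). Cell type markers were called lower against KO CTR too: 2 of 6 for hepatocytes, 3 of 5 erythroid, 1 of 6 for cholangiocytes and 2 of 7 stellate and endothelial. For Kupffer cells and leukocytes it was 0 of 8. The part of these markers was not tested. *Gclc* was at 0.50 against KO noTrp (adjusted p = 0.0588), and was called there by DESeq2 (0.04) and limma-voom (0.0421). The interaction called 2, *Ggct* and *Gsr*, against 7.44% of all genes. Without KO noCys replicate 3, 3 genes were called against WT noCys, 1 against KO CTR and 1 against KO noTrp. The share of all genes called in those smaller fits is not given here, so whether the drop is particular to these genes cannot be told.

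**Figure D4:**
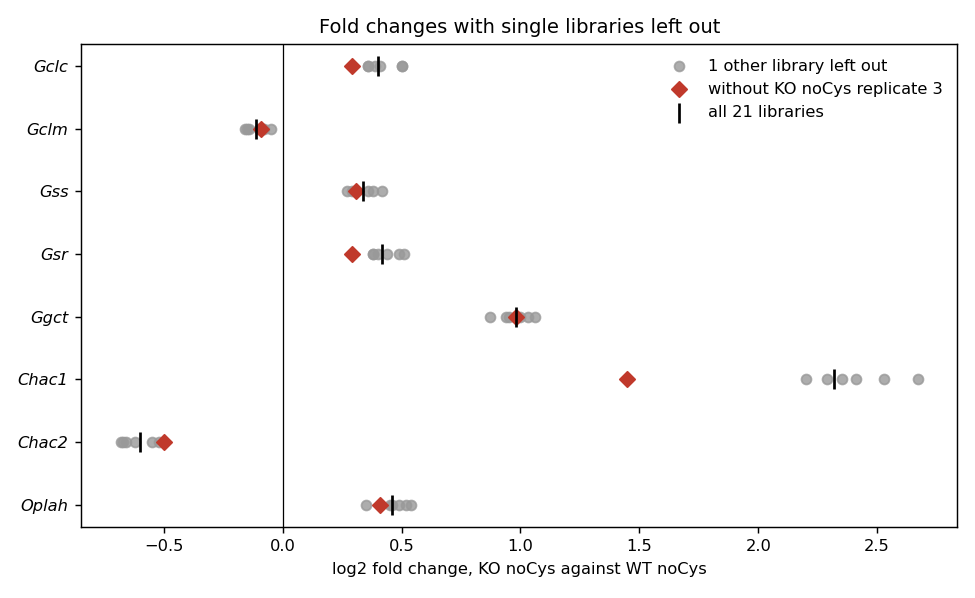
Log2 fold change of KO noCys against WT noCys (x axis) for the 8 tested genes (y axis), from all 21 libraries (black bar) and with each of the 7 libraries of these groups left out in turn (points, red diamond for KO noCys replicate 3). *Chac1* moves the most, to 1.45 without that replicate, and *Ggct* stays at 0.87 to 1.06.

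Further genes that use, cleave or carry glutathione were counted from a list of 27, of which 24 were tested. 6 rose and 4 fell in KO noCys against WT noCys, with a list median of 0.04 beside -0.02 over all genes and with 28.2% of all genes called. Against KO CTR 5 rose and 3 fell (20.2% of all genes), against KO noTrp 4 rose and 4 fell (13.9%), and 3 of each passed in the interaction (7.44%); outside the KO noCys comparisons 1 gene passed, *Glo1*, lower in WT noTrp than in WT CTR. *Slc3a2*, the heavy chain that partners *Slc7a11*, was at 35.6 to 44.3 CPM in WT noCys, compared with 54.8, 163 and 118 in KO noCys (1.44, SE 0.21, adjusted p = 5.34e-05). *Abcc4*, an exporter that can carry glutathione with other substrates, went from 1.56 ± 0.0568 CPM (SD, n = 4) to 11.1 ± 2.93 (n = 3), or 2.83 (SE 0.27, adjusted p = 6.22e-07). Of the carriers and peptidases, *Slc25a39*, which moves glutathione into mitochondria, rose by 0.57 (adjusted p = 0.000424), and *Lap3*, a leucine aminopeptidase that cleaves cysteinylglycine, rose by 0.39 (adjusted p = 0.0308; called in 2 of 7 fits with a library left out).

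Of 5 glutathione peroxidases tested, 1 rose, 1 fell and *Gpx3* (-0.10), *Gpx7* (0.54) and *Gpx8* (-0.21) were not called. *Gpx4*, which reduces lipid peroxides, went from 245 to 310 CPM in WT noCys to 388 to 427 in KO noCys (0.60, adjusted p = 0.00256), and *Gpx1*, the abundant cytosolic form, from 1649 to 2123 CPM to 1047 to 1281 (-0.69, adjusted p = 0.000998). *Gpx4* was not called against KO CTR (0.34, adjusted p = 0.0834) or KO noTrp (0.29, adjusted p = 0.142), whereas *Gpx1* was called lower against both. *Glo1*, glyoxalase 1, fell by 0.95 (adjusted p = 9.24e-07), *Ggt6* by 0.82 (adjusted p = 5e-04) and *Anpep*, aminopeptidase N, by 0.68 (adjusted p = 0.000158). *Glo1* and *Anpep* were also called lower against KO CTR, and *Ggt6* was not (-0.35, adjusted p = 0.11). *Esd*, S-formylglutathione hydrolase, was called at 0.23 (adjusted p = 0.0458) but in none of the 7 fits with a library left out.

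Of 8 regulators, 3 were called in this comparison, all higher: *Trib3*, *Ddit3* and *Bach1*. The background was 28.2% of all genes, called in either direction. The *Ddit3* groups overlapped, with KO noCys replicate 1 at 8.8 CPM and WT noCys at 7.88 to 10.8. *Nfe2l2*, which encodes NRF2, was at 55.8, 55.3, 48.5 and 57.2 CPM in WT noCys, compared with 43.0, 50.1 and 60.2 in KO noCys (-0.08, SE 0.16, adjusted p = 0.725). *Atf4* was at 93.5, 121, 119 and 87.3 CPM and at 95.6, 181 and 143 (0.42, SE 0.18, adjusted p = 0.0909). Against KO noTrp, 4 of the 8 regulators were called higher (13.9% of all genes called). *Atf4* was one of them (0.55, SE 0.17, adjusted p = 0.0361), although its groups overlapped. The regulator calls were not followed through the fits with libraries left out. KO noCys replicate 3 was the highest library of its group for *Atf4*, *Trib3* (51.9, 225 and 101 CPM in replicates 1, 3 and 4), *Slc3a2*, *Chac1* and *Slc7a11*, and replicate 1 the lowest. *Chac1*, *Slc3a2*, *Ddit3* and *Trib3* were picked out in the study's text from liver data that hold these libraries, so their direction is not independent evidence. These mRNA levels say nothing of the activity of either factor.

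By pattern over the 21 libraries (Pearson r of log2 CPM, a description of points that share libraries), the genes most like *Ggct* were *Ears2* (0.90), *Set* (0.88) and *Rpf2* (0.86). For *Chac2* they were *Dgcr2*, *Abhd3* and *Pfkm* (0.84 to 0.86), and for *Oplah* *Pigo*, *Rnps1* and *Slc25a5* (0.88 to 0.89). *Chac1* had *Srrt*, *Prmt7* and *Zfp653*, all at 0.81, and *Gss* had *Mrpl54*, *Arpp19* and *Rps18* (0.82 to 0.86).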

How the data were processed

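The authors isolated liver RNA by TRIzol, purified its poly(A) fraction, sequenced it in paired ends, aligned reads to GRCm38 with HISAT2 2.1.0 and counted with HTSeq 0.11.0. The deposited values are raw whole-number counts per gene, with no normalization. Annotation release and strand setting were not given in the sources used here. 1 column matched no sample and was not used. GENCODE M21 gave symbols for 45229 of 46078 identifiers; the other 849 held 0.0536% of counts.

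Counts were fitted in edgeR 4.0.16 (R 4.3.3): filterByExpr over 6 groups (minimum count 10, minimum total 15), TMM scaling (factors 0.883 to 1.14), 1 one-way model over 21 libraries, and two-sided quasi-likelihood tests, which were checked on simulated data. Groups and replicate numbers came from the sample titles, which call the samples biological replicates; whether same-numbered animals were related was not given. The *Gclm* to *Gclc* ratio was tested by exact permutation (SciPy 1.17.1). Alternatives were DESeq2 1.42.0, limma-voom 3.58.1 with quality weights, RLE factors, library totals, no low-count filter, a replicate block, fits limited to the compared groups, and single libraries left out.

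The rule for named genes took all 10 genes, *Cth*, the regulators *Nfe2l2* and *Atf4*, list genes called in KO noCys against WT noCys, and the 3 most similar genes of each called gene; *Gpx3*, *Gpx7*, *Gpx8*, *Trib3*, *Ddit3*, *Bach1*, the genes that overlap members and the named markers were added after their values were seen. Members and lists were chosen with earlier results of these data known.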

Additional observations from a re-analysis of the deposited data

Results flagged for a closer look

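*Oplah* was at 205 CPM in KO noTrp replicate 1, far from the 138 to 150 of the other 4 libraries of its group and above every other library of the series. It was the only such sample among 24 tests of a group's highest or lowest library, where chance flags about 1 in 20. The 24 tests did not cover all 8 genes in all 6 groups. *Chac1* in KO noCys replicate 3 (52.9 CPM, against 11.8 and 19.1 in replicates 1 and 4) was not among those flagged.

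Removal of cysteine acted differently in the 2 genotypes for *Ggct* (interaction 0.95, adjusted p = 0.0102, edgeR), which was at 9.88 ± 1.24 CPM (SD, n = 4) in KO CTR and 16.0 ± 0.569 (n = 3) in KO noCys, and at 9.73 ± 1.21 (n = 3) in WT CTR and 8.20 ± 1.42 (n = 4) in WT noCys. The same test gave 0.74 for *Gsr* (adjusted p = 0.0458, edgeR), with means of 61.6 and 80.7 CPM in KO and of 77.1 and 60.6 in WT, but was called in only 4 of 14 fits with a library left out.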

How the results depend on the processing

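With single libraries left out, the number of genes called ran from 3 to 6 for KO noCys against WT noCys, from 1 to 3 against KO CTR, from 1 to 4 against KO noTrp, and from 1 to 2 for the interaction. Shares of all genes called in these fits are not given here. For KO noCys against WT noCys, where 5 were called, limma-voom, library totals and the fit of the compared groups alone each called 7 (*Gclc* and *Gsr* gained), DESeq2 6 (*Gsr* gained), the fit without a filter 6 (*Slc7a11* gained) and RLE factors 5. Calls over all genes rose as well, from 4055 in the main fit to 5363 with limma-voom, 4927 with library totals and 4245 with DESeq2. limma-voom called 5 genes in KO noCys against KO noTrp, where it called 3204 of all genes beside 2000 in the main fit. DESeq2 and the fit without a filter each called 1 in WT noTrp against WT CTR. There DESeq2 called 753 of all genes beside 459 in the main fit. The fit without a filter called 1 in the interaction, *Gsr* being lost. Scaling by library totals moved the median of all genes in KO noCys against WT noCys from -0.02 to 0.20 and the share of higher calls from 52.5% to 80%; it turned *Gclm* to 0.10 there, 0.02 against KO CTR and 0.14 in the interaction. *Gclm* in KO noCys against KO noTrp lay at 0.00 and became -0.00 with DESeq2, RLE factors or only the groups compared, -0.01 without a filter, -0.07 with limma-voom, and -0.07 to 0.05 with libraries left out; left-out libraries gave -0.08 to 0.07 for its interaction, -0.00 to 0.27 for *Gclc* against KO CTR, and -0.02 to 0.18 for the *Oplah* interaction. None of these reversed values was called, and the causes were not tested. 

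Replicate numbers did not pair the samples: deviations of same-numbered libraries correlated at -0.355 to 0.353, with 5 of 23 pairs over 0.1 and 6 of 23 best matched to their own number. With the replicate block, 6 genes were called in KO noCys against WT noCys (*Gsr* gained, adjusted p = 0.0424), 2 against KO CTR (*Chac2* lost, 0.0812), 2 against KO noTrp (*Chac1* lost, 0.0944) and 1 in the interaction, where *Gsr* was lost (0.74, adjusted p = 0.0605), and the *Gclm* to *Gclc* difference was -0.45. The share of all genes called under the block is not given here, and the shares of the main fit do not apply to it. Depth limits *Slc7a11* and *Ggt1*, and groups of 2 to 5 animals limit all tests.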
